A study of Saccharomyces cerevisiae with 3 samples.

Results

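The genes described here encode the enzymes that make isoleucine, valine and leucine in the budding yeast Saccharomyces cerevisiae. The set was chosen by gene name and holds 10 of the 6265 genes measured: ILV1, ILV2, ILV6, ILV5, ILV3, LEU4, LEU9, LEU1, BAT1 and BAT2. Of these, 9 carried that name on the array, and LEU9 was listed under its locus tag YOR108W, which the RefSeq gene table pairs with LEU9. The levels come from 3 arrays of the haploid strain BY4742, each with RNA pooled from 3 cultures: 1 array of cells held at high pressure (25 MPa, 24 °C) for 5 h, 1 of cells held at low temperature (0.1 MPa, 15 °C) for 5 h, and 1 control of cells growing at atmospheric pressure (0.1 MPa, 24 °C). The labels state no 5 h hold for the control, and the design text does not name the growth medium. The free-text sample descriptions name rich medium, but their strain and temperature differ from those in the titles, so the medium of these cultures is not settled. All cells share the strain's deletions, among them that of LEU2, the isopropylmalate dehydrogenase of the leucine branch, so that these cells cannot complete leucine synthesis and depend on leucine from the medium. LEU2 is therefore not part of the set.

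With 1 array for each condition there is no replicate, no difference could be tested, and each fold below describes these arrays. A gene was counted as higher or lower when its levels differed by at least 1.5-fold, which is the size the submitters treat as meaningful. Levels are on the log2 scale of robust multiarray average (RMA), the probe summary that the authors deposited. Each gene is read by 15 probe pairs, a perfect match and a mismatch that measures unspecific signal. As a check of the strain, which is of the alpha mating type, all 3 alpha-specific genes read were above mismatch on every array. Of 4 a-specific genes STE2 was as well, at levels from 5.38 to 5.83. MFA1, BAR1 and MFA2 were above mismatch on none of the arrays. Their levels were 6.52 to 6.63 for MFA1, 5.80 to 6.23 for BAR1 and 9.05 to 9.06 for MFA2. The level of MFA2 was above that of the alpha-specific STE3 in the control, 8.98. Of the markers deleted in this strain, LYS2 and URA3 lay above mismatch on none of the arrays and HIS3 on all of them, at levels from 7.12 to 8.34, and where the HIS3 probes lie was not tested. LEU2 had levels of 6.92 under high pressure, 7.58 at low temperature and 6.01 in the control, none of them above its mismatch probes. The median perfect-match intensity over all rows was 327 under high pressure, 400 at low temperature and 278 in the control. Settings with the arrays centred on their medians were also run, and the cause of these overall shifts was not tested.

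Isoleucine and valine are made in mitochondria by parallel series of reactions that share most of their enzymes. Threonine deaminase, encoded by ILV1, commits threonine to isoleucine. Acetolactate synthase (catalytic subunit ILV2, regulatory subunit ILV6), the reductoisomerase ILV5 and the dehydratase ILV3 then serve both amino acids. Leucine branches off from the keto acid of valine through the isopropylmalate synthases LEU4 and LEU9 and the isomerase LEU1. The transaminases BAT1, in mitochondria, and BAT2, in the cytosol, carry out the last step for all of the branched-chain amino acids and the first step of their breakdown. The transcription factor Leu3, which responds to isopropylmalate, and the general amino acid control factor Gcn4 are known regulators of the pathway.

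On the RMA scale most genes of the pathway were lower than in the control on both treated arrays, and by more on the low-temperature array. Under high pressure 6 of the 10 were lower past 1.5-fold and 0 higher, where 12.2% of all genes counted were lower and 28.1% higher. At low temperature 8 of the 10 were lower and 0 higher, where 9.6% of all genes counted were lower and 34.7% higher. The median log2 ratio of the 10 genes was -0.75 under high pressure and -1.10 at low temperature, against 0.17 and 0.30 for all genes counted. All 10 genes lay above their mismatch probes on all 3 arrays. In RNA of whole cultures, less transcript in every cell and transcript in fewer cells cannot be told apart. Both treatments were set against the same control array, so that any error of that array enters both sets of ratios.

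The size of these ratios differed between the RMA levels and the mean perfect-match intensities, and the cause was not tested. With the mean perfect-match intensities in place of the RMA levels, 2 genes were lower past 1.5-fold under high pressure and 4 at low temperature, with medians of -0.35 and -0.32 beside 0.20 and 0.53 for all genes. The median of the set was thus not lower at low temperature than under high pressure with these intensities. On that scale 5.11% and 2.28% of all genes were lower. With these intensities centred on the median of each array, 5 and 7 genes were lower, where 10.2% and 12.8% of all genes were. The medians of the set were then -0.59 and -0.85. The 4 genes lower at low temperature on the perfect-match scale were ILV2, ILV3, LEU9 and LEU1, and the 2 under high pressure were ILV2 and LEU9.

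**Figure D1:**
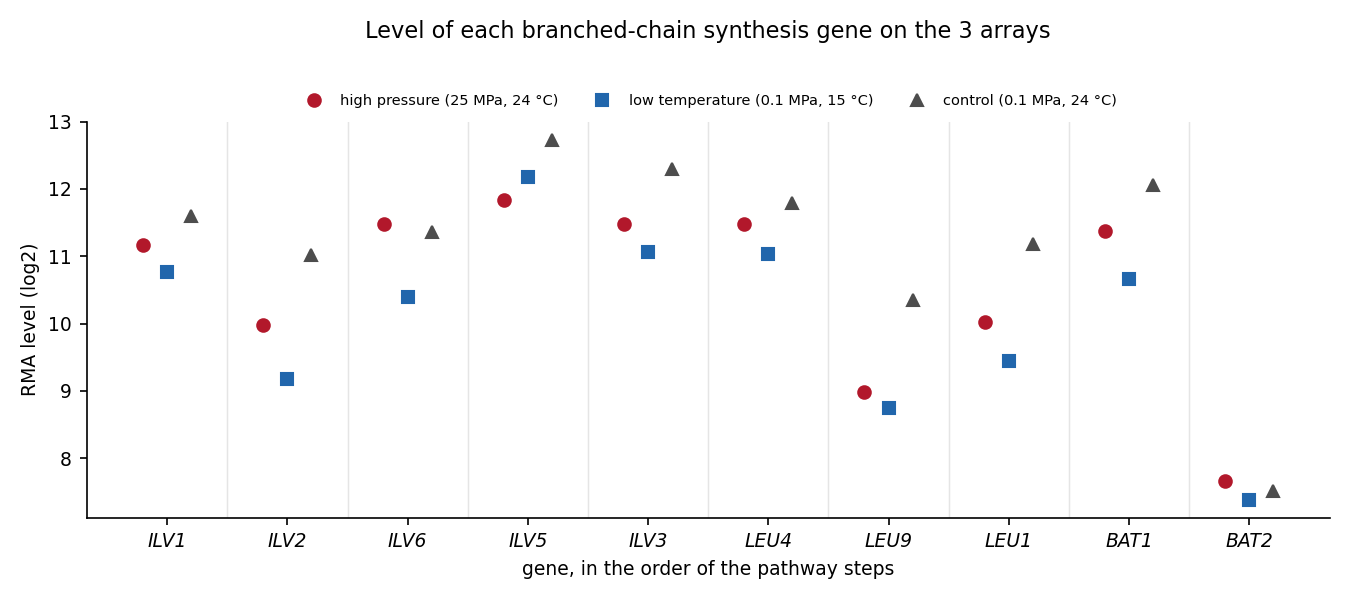
RMA levels (log2) of the 10 genes, in the order of the pathway, on the high-pressure array (circles), the low-temperature array (squares) and the control array (triangles), 1 point for each array. The control is the highest of the 3 for 8 genes, and the high-pressure array for ILV6 and BAT2.

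The entry to isoleucine was lower at low temperature. ILV1 had a log2 level of 11.16 under high pressure and 10.77 at low temperature, against 11.59 in the control. Its log2 ratio was -0.43 under high pressure, inside 1.5-fold, and -0.83 at low temperature (1.77-fold lower). The mean perfect-match intensities of ILV1 were 2804 under high pressure, 2665 at low temperature and 2834 in the control, nearly level on that scale. The mismatch intensity of this gene was 938 at low temperature, against 640 in the control, and its probe pairs had the lowest t value of any member, 2.13 on the low-temperature array, above the limit of 1.76.

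Acetolactate synthase, the enzyme at which the valine and isoleucine routes meet, had subunit genes with different ratios. ILV2, the catalytic subunit, had log2 levels of 9.98 under high pressure and 9.18 at low temperature, against 11.02 in the control. It was 2.05-fold lower under pressure and 3.58-fold lower at low temperature, the lowest ratio of the set in the cold. The perfect-match intensities of ILV2 followed the same order, 1175 and 814 against 1843, with log2 ratios of -0.65 and -1.18. ILV6, the regulatory subunit through which valine inhibits the enzyme, lay at 11.47 under high pressure, 10.39 at low temperature and 11.36 in the control. Thus ILV6 was level with the control under pressure (log2 ratio 0.12) and 1.95-fold lower at low temperature (log2 ratio -0.97), although only -0.24 on the perfect-match scale. The log2 ratio of ILV2 was below that of ILV6 by 1.15 under pressure and by 0.88 at low temperature, so that the 2 genes' folds differed by 2.22-fold and 1.83-fold. On the perfect-match scale these differences were 2.13-fold and 1.92-fold.

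ILV5 and ILV3 encode the next enzymes shared by both routes, and both were lower under high pressure. ILV5, a reductoisomerase that is also known to bind mitochondrial DNA, had log2 levels of 11.84 under high pressure and 12.18 at low temperature, against 12.73 in the control. It was 1.86-fold lower than control under pressure, while its log2 ratio in the cold, -0.55, stayed inside 1.5-fold. Its perfect-match intensities were 4178 under pressure and 6616 at low temperature, against 5651 in the control, so that on this scale the low-temperature array was the highest of the 3. ILV3, the dihydroxyacid dehydratase and an iron-sulfur enzyme, lay at 11.47 under pressure and 11.07 in the cold, against 12.30 in the control. These levels are 1.78-fold and 2.36-fold below the control. ILV3 kept its direction on the perfect-match scale, with 3764 and 3538 against 5398.

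**Figure D2:**
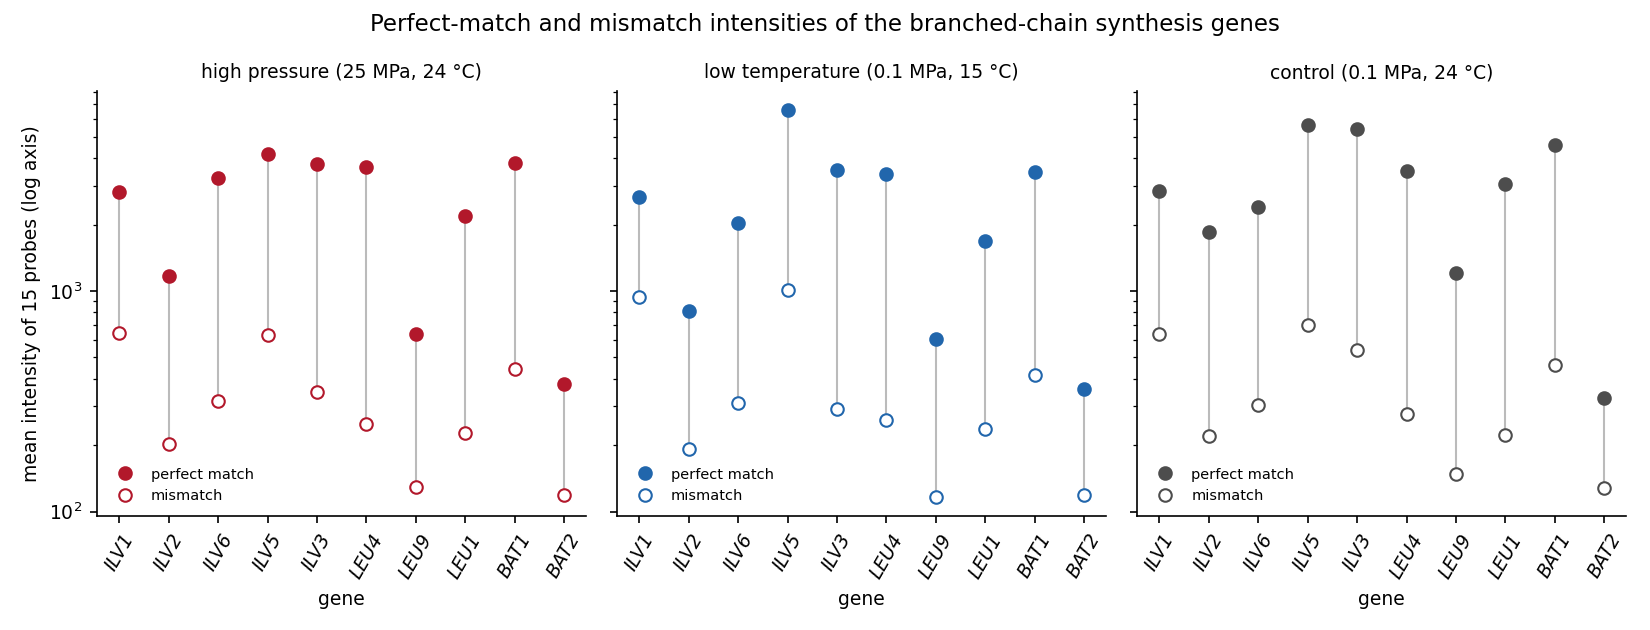
Mean perfect-match (filled) and mismatch (open) intensities over 15 probes for each gene on the high-pressure, low-temperature and control arrays, on a log axis. Perfect-match signal lies above mismatch signal for every gene on every array, from 2.55 times (BAT2, control) to 14.7 times (LEU4, high pressure).

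In the leucine branch the isopropylmalate synthase genes differed in the size of their ratios. LEU4 encodes the main synthase, which leucine inhibits, and LEU9 its paralog. LEU4 had log2 levels of 11.47 under high pressure, 11.03 at low temperature and 11.79 in the control, with log2 ratios of -0.31 (inside 1.5-fold) and -0.75 (1.69-fold lower). Its perfect-match intensities were 3649, 3380 and 3478, nearly level. LEU9 had log2 levels of 8.98 under high pressure and 8.75 at low temperature, against 10.35 in the control. LEU9 was 2.58-fold lower under pressure, the lowest ratio of the set there, and 3.04-fold lower at low temperature. The same pattern was seen in its perfect-match intensities of 639 and 606 against 1204. The log2 ratio of LEU9 was below that of LEU4 by 1.06 under pressure and 0.85 at low temperature on the RMA scale, and by 0.98 and 0.95 with perfect-match intensities. Whether probes of these paralogs read each other's transcripts was not tested.

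LEU1, the isopropylmalate isomerase, is an iron-sulfur enzyme of the cytosol and a known target of Leu3. It had log2 levels of 10.03 under high pressure and 9.45 at low temperature, against 11.18 in the control. LEU1 was 2.22-fold lower under pressure and 3.34-fold lower in the cold. The perfect-match intensities of LEU1 were 2183 and 1688, against 3063 in the control, with smaller log2 ratios of -0.49 and -0.86.

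The transaminase genes at the end of the pathway differed from each other. BAT1, the mitochondrial form, which serves synthesis, had log2 levels of 11.38 under high pressure and 10.66 at low temperature, against 12.06 in the control. BAT1 was 1.60-fold lower under pressure and 2.64-fold lower in the cold, although its perfect-match log2 ratios, -0.27 and -0.40, stayed inside 1.5-fold. BAT2, the cytosolic form, which is known for its part in breakdown of these amino acids, lay at 7.66 under high pressure, 7.38 at low temperature and 7.51 in the control. Its levels were within 1.5-fold of the control on both arrays. The log2 ratio of BAT1 was below that of BAT2 by 0.82 under pressure and by 1.27 at low temperature, a 1.77-fold and 2.41-fold difference between their folds that was 1.40-fold and 1.46-fold with perfect-match intensities. BAT2 had perfect-match intensities of 379 under high pressure, 359 at low temperature and 326 in the control, beside mismatch intensities of 119, 119 and 128, so that on this scale both treated arrays were slightly above the control.

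**Figure D3:**
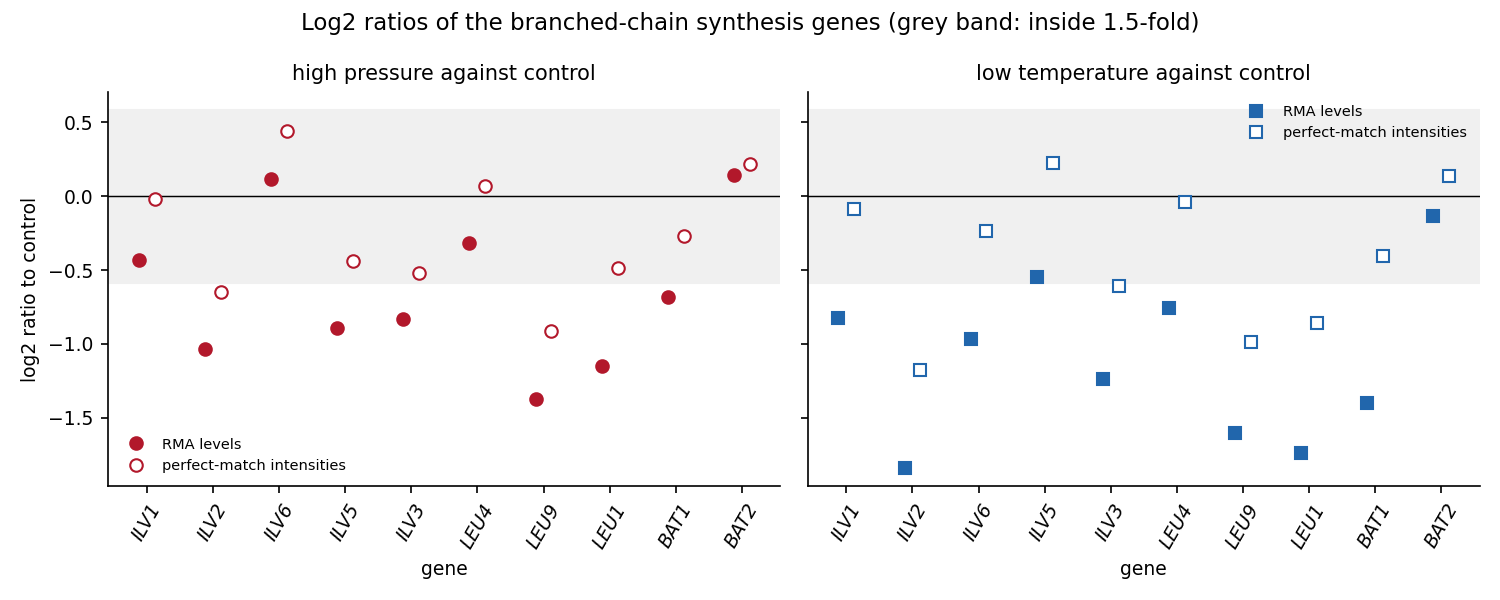
Log2 ratio to control of each gene under high pressure (left) and at low temperature (right), from RMA levels (filled) and from mean perfect-match intensities (open). The perfect-match ratio is the higher of the pair for every gene in both panels, and the grey band marks values inside 1.5-fold.

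High pressure was also set directly against low temperature, a ratio in which the levels of the control array do not enter. The labels do not say if the control was normalized together with the other arrays. Of the 10 genes, 4 were higher under pressure past 1.5-fold and 0 lower, where 4.28% of all genes counted were higher and 10.1% lower. All members except BAT2 lay at or above the 75th percentile of mean level, a range chosen after the values were seen. Of the 1567 genes in that range, 139 were higher here and 128 lower, beside 205 and 486 of all 4795 counted. Half-way through that range's ratios, the median gene was at -0.009. The 4 higher members were ILV6 (2.12-fold), ILV2 (1.75-fold), BAT1 (1.65-fold) and LEU1 (1.50-fold), the last of them at the limit itself. The next gene below the limit was LEU4, with a log2 ratio of 0.44. ILV5 was the only member with a lower RMA level under pressure than in the cold (log2 ratio -0.35), and on the perfect-match scale it was past 1.5-fold at -0.66. On that scale ILV6, at 0.68, was the only member higher past 1.5-fold. The median log2 ratio of the set was 0.42, against -0.13 for all genes counted, and 0.10 against -0.30 with perfect-match intensities.

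Among genes linked to the pathway, the same direct comparison had THR1 (log2 ratio 0.84) and HOM2 (0.83), enzymes on the way to threonine, ATF2 (0.83), an acetyltransferase that esterifies fusel alcohols, and GCN4 (0.63) higher under pressure than in the cold. With perfect-match intensities all 4 of these were inside 1.5-fold, at 0.42 for THR1, 0.24 for HOM2, 0.53 for ATF2 and 0.11 for GCN4. On that scale the median of all genes was -0.30, with 1.65% of genes higher and 16.9% lower. MPC3, a subunit of the pyruvate carrier, was lower under pressure at -0.85, and at -0.83 with perfect-match intensities. On the RMA scale, of the tRNA synthetase and iron-sulfur lists described below, 0 genes passed 1.5-fold in this comparison. The regulators and carriers had 1 higher and 2 lower of 7 counted. The threonine list had 2 higher of 7 and the list of breakdown genes 2 of 8, with 0 lower in either. Of all genes counted, 4.28% were higher and 10.1% lower. LEU5 among the lower and PDC5, a breakdown gene among the higher, were not above mismatch on any array.

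Against the control, the members nearest to the 1.5-fold limit (0.58 on the log2 scale) were BAT1 at -0.68 just past it and ILV1 at -0.43 just inside it under high pressure. At low temperature LEU4 at -0.75 was just past it and ILV5 at -0.55 just inside it. Within the set the log2 ratios had an SD over genes of 0.52 under high pressure (range -1.37 to 0.15) and 0.56 at low temperature (range -1.84 to -0.13). Relative to the median of all genes counted, all 10 genes were lower in both comparisons with the control, and 8 and 10 of them with perfect-match intensities. Under high pressure BAT2 and ILV6 lay only 0.02 and 0.05 below that median on the RMA scale, nearly level with it. With quantile normalization of the gene values, or with no filter on low levels, 9 genes lay below it under high pressure. On the RMA scale 7 genes had their highest level in the control, the next under pressure and the lowest in the cold. The exceptions were ILV5, lowest under pressure, and ILV6 and BAT2, highest under pressure.

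**Figure D4:**
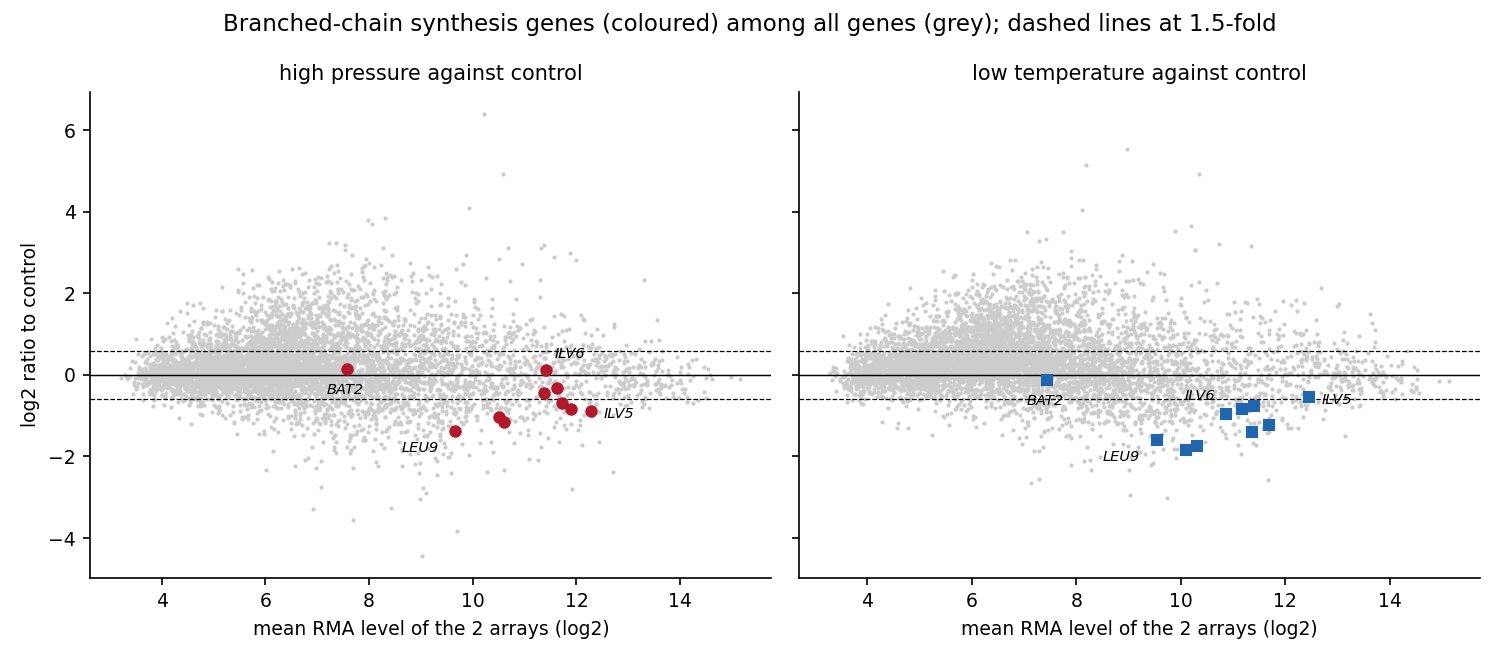
Log2 ratio to control against the mean RMA level of the arrays compared, for all genes (grey) and the 10 branched-chain genes (coloured, 4 of them named), with dashed lines at 1.5-fold. All members except BAT2 lie among the brighter genes, below the median ratio of 0.17 under high pressure and 0.30 at low temperature.

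Of the 10 genes, 9 lay at or above the 75th percentile of mean level. Against the control, brighter genes were more often lower than genes in general. Among the 1567 genes in that range, 18.4% were lower and 26.9% higher past 1.5-fold under high pressure, and 18.1% lower and 26.4% higher at low temperature, with median log2 ratios of 0.08 and 0.05. This range was chosen after the values were seen.

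GCN4 and LEU3 encode the known regulators of the pathway. The level of GCN4, whose activity is set mainly by its translation, was 12.56 under high pressure, 11.93 at low temperature and 12.18 in the control on the log2 scale, with log2 ratios of 0.39 and -0.24, both inside 1.5-fold. Its perfect-match intensities gave another picture, 7624 and 7074 against 4579 in the control, with log2 ratios of 0.74 and 0.63. On that scale GCN4 was higher past 1.5-fold on both treated arrays. So were 23.7% of all genes under pressure and 46% in the cold, with medians over all genes of 0.20 and 0.53. LEU3 had levels of 6.15, 5.76 and 5.78 and lay above its mismatch probes on none of the arrays, so its ratios are not given. OAC1, a mitochondrial carrier for oxaloacetate that also exports isopropylmalate, lay at 8.33 under pressure and 7.80 at low temperature, against 8.63 in the control, and was 1.79-fold lower in the cold, although its perfect-match log2 ratio was -0.16. MPC1, a subunit of the mitochondrial pyruvate carrier that supplies the substrate of acetolactate synthase, was higher, at 9.38 and 9.59 against 8.00 (2.61-fold and 3.02-fold). MPC3, an alternative subunit of that carrier, was 2.46-fold higher at low temperature, with 7.47 against 6.18. Of the 7 of these 8 regulators and carriers bright enough to be counted, 1 was higher and 0 lower under pressure, where 28.1% of all genes were higher and 12.2% lower. At low temperature 3 were higher and 1 lower, where 34.7% of all genes were higher and 9.6% lower, so that both counts are near the share of all genes. LEU5 was among the higher without being above mismatch. The median of the 8 genes was 0.26 and 0.03, but 0.36 and 0.87 with perfect-match intensities.

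Threonine is the substrate of ILV1, and the threonine list holds 5 genes of its synthesis and 2 of its use. Of these 7 genes, 2 were lower under high pressure, beside 12.2% of all genes, and 5 at low temperature, beside 9.6%, with 0 higher in either. The 2 lower under pressure, GLY1 and CHA1, consume threonine, and all 5 synthesis genes, HOM3, HOM2, HOM6, THR1 and THR4, were inside 1.5-fold there. GLY1, the threonine aldolase, had the lowest ratios, with levels of 10.20 under pressure and 10.58 in the cold against 12.30 in the control (4.28-fold and 3.29-fold lower). CHA1, a catabolic serine and threonine deaminase, was 1.76-fold and 1.92-fold lower. Its perfect-match intensities were 928 and 1269 against 1287 in the control. On that scale CHA1 was inside 1.5-fold under pressure (log2 ratio -0.47) and level in the cold (-0.02). THR1, the homoserine kinase, had levels of 10.28 and 9.44 against 10.33 and was 1.85-fold lower at low temperature, with a perfect-match log2 ratio of -0.16. GLY1 kept its call on that scale, with log2 ratios of -1.64 and -0.89. The median log2 ratio of the branch was -0.11 under high pressure and -0.70 at low temperature, but 0.23 and -0.02 with perfect-match intensities.

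Breakdown of branched-chain amino acids by the Ehrlich pathway turns their keto acids into fusel alcohols and esters, and its 9 genes were called at about the rate of genes in general. Under high pressure 3 of 9 were higher and 1 lower, where 28.1% of all genes were higher and 12.2% lower, and at low temperature also 3 and 1, where the shares were 34.7% and 9.6%. ATF2, an alcohol acetyltransferase, was 2.85-fold higher under pressure, with 8.63 against 7.12 in the control, and 1.60-fold higher in the cold. ATF1, of the same activity, had levels of 6.99 and 7.31 against 6.15 and was 1.79-fold and 2.24-fold higher. THI3, a decarboxylase-like protein, was 1.90-fold and 1.97-fold higher, and SFA1, an alcohol dehydrogenase, was 1.99-fold and 2.26-fold lower. With perfect-match intensities ATF1 under pressure (0.34) and SFA1 in the cold (-0.43) were inside 1.5-fold on the log2 scale. The median log2 ratios of the 9 genes were 0.15 and 0.12, and 0.23 and 0.55 with perfect-match intensities.

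**Figure D5:**
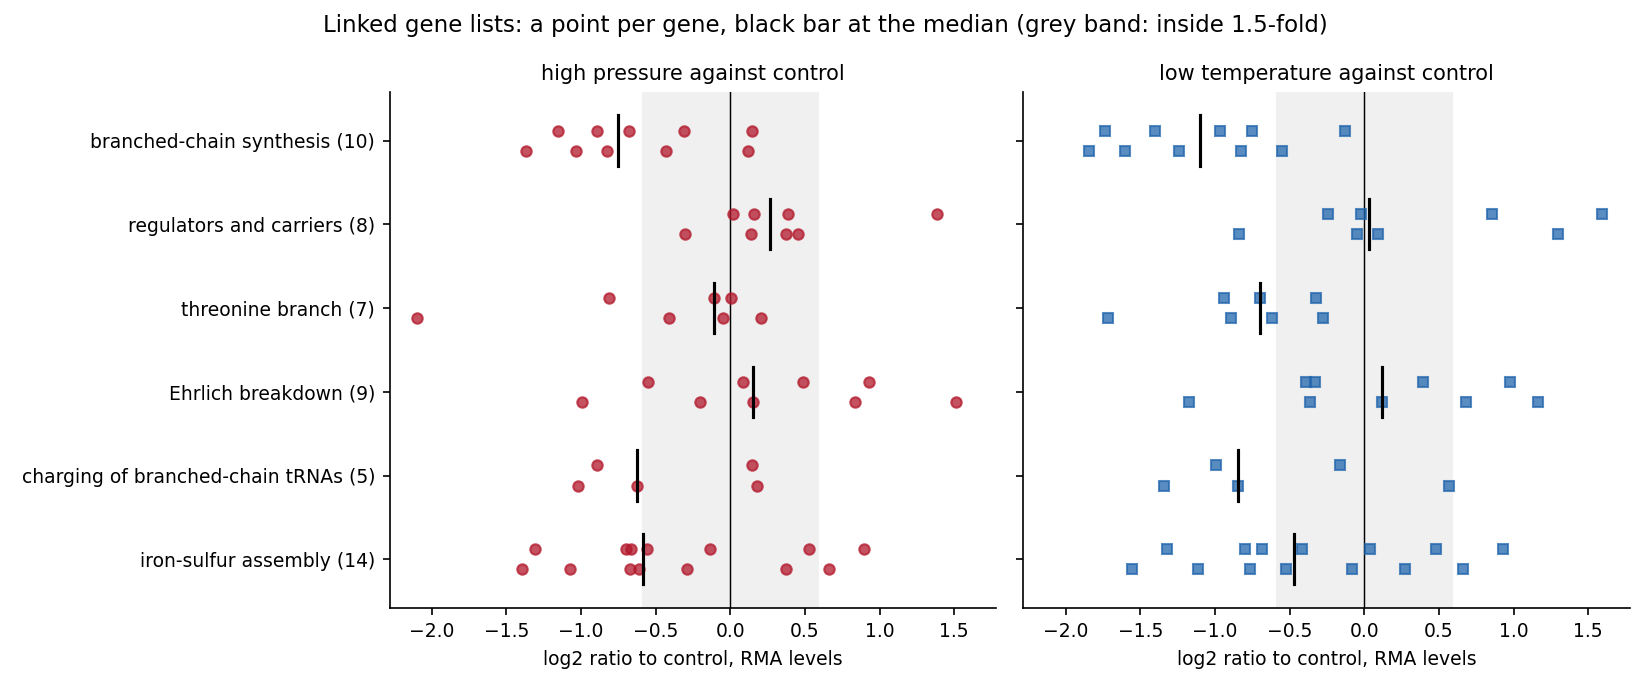
Log2 ratio to control on the RMA scale for the 10 branched-chain genes and 5 linked lists under high pressure (left) and at low temperature (right), with 1 point for each gene, a black bar at each median and the size of each list in brackets. Over all the genes plotted in each list, the branched-chain set has the lowest median in both panels, -0.75 and -1.10. The tRNA synthetase list includes NAM2 and ISM1, which were too dim to be counted. Its 3 counted genes lay at -1.02, -0.89 and -0.62 under high pressure. With perfect-match intensities the set had medians of -0.35 and -0.32. Those of iron-sulfur assembly were -0.35 and -0.03, and those of the synthetases -0.25 and -0.28.

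Genes of the tRNA synthetases that load branched-chain amino acids were lower for 3 of 5 on both arrays and higher for 0, where 12.2% of all genes were lower under pressure and 9.6% in the cold. CDC60, for leucine, had levels of 9.57 under pressure and 9.25 at low temperature against 10.59 in the control (2.03-fold and 2.53-fold lower). ILS1, for isoleucine, was 1.54-fold and 1.99-fold lower, and VAS1, for valine, 1.86-fold and 1.80-fold lower. The mitochondrial synthetases NAM2 and ISM1 were under the level needed to be counted. With perfect-match intensities CDC60 kept its call, with log2 ratios of -0.68 and -0.70, while ILS1 (-0.25 and -0.28) and VAS1 (-0.56 and -0.17) were inside 1.5-fold. The median of the 5 genes was -0.62 and -0.85, but -0.25 and -0.28 with perfect-match intensities.

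ILV3 and LEU1 carry iron-sulfur clusters, and 13 of 14 genes of cluster assembly were bright enough to be counted. Of these, 7 were lower and 2 higher under high pressure, where 12.2% of all genes were lower and 28.1% higher, and 6 were lower and 2 higher at low temperature, where the shares were 9.6% and 34.7%. NFS1, the cysteine desulfurase, had levels of 7.60 under pressure and 7.12 at low temperature against 8.68 in the control. It was 2.10-fold lower under pressure, and its log2 ratio in the cold was -1.55, where the low-temperature level was not above mismatch. The scaffold genes ISU1 and ISU2 were 2.48-fold and 1.59-fold lower under pressure and 1.74-fold and 2.17-fold lower in the cold. With perfect-match intensities ISU1 was above the control in the cold (log2 ratio 0.16), and its ratio under pressure (-0.50), those of ISU2 (-0.21 and -0.37) and those of NFS1 (-0.46 and -0.31) were inside 1.5-fold. YFH1, the yeast frataxin, was 1.86-fold and 1.90-fold higher, with perfect-match log2 ratios just inside that limit, 0.57 and 0.56. ATM1 and NAR1 were counted as lower on both arrays, and CFD1 under pressure, but none of these was above mismatch on any array. JAC1, counted as higher in the cold, was above mismatch neither there nor in the control. The median of the list was -0.59 and -0.47 on the RMA scale and -0.35 and -0.03 with perfect-match intensities.

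The genes outside the set whose pair of log2 ratios lay nearest to the set's medians were sought among 2889 genes above mismatch on all 3 arrays. Among the 5 nearest were FUR1, the uracil phosphoribosyltransferase (-0.78 under high pressure and -1.12 at low temperature), GRS1, the glycyl-tRNA synthetase (-0.80 and -1.10), NMA111, a serine protease (-0.81 and -1.14), and ISU2 (-0.67 and -1.12). The distance on the log2 scale was 0.03 for FUR1 and 0.09 for ISU2, over 3 arrays.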

How the data were processed

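The log2 levels are the authors' values from robust multiarray average (RMA), which per the labels used quantile normalization. The submitters' processing notes name RMA too, without a version or background correction. Quantile normalization draws arrays together, which can mask or produce a common shift. The median level over rows still differed, at 6.77 under high pressure, 6.98 at low temperature and 6.43 in the control, and the labels do not say if the arrays were normalized as 1 set. The deposited tables of each array give, per the file headers, mean perfect-match and mismatch intensities of 15 probe pairs on a linear scale and a coefficient of variation, the ratio of SD to mean over probes. The free-text descriptions name another strain and growth temperature than the titles, with rich medium. Grouping followed the titles.

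Names were matched to RefSeq assembly R64, which served for names and lengths only. Of 6337 rows, 3953 matched by symbol, 1723 by locus tag and 152 by synonym. Rows of a gene were averaged, which left 6265 genes. A gene was above mismatch when its mean probe-pair difference exceeded 0 at a one-sided level of 5% (t above 1.76, 14 degrees of freedom). Genes were counted past 1.5-fold if the higher level reached the 25th percentile of its array. All members were named. For linked lists, up to 3 genes past 1.5-fold and above mismatch on the brighter array were named by size, and LEU3, GCN4 and OAC1 always, and a gene named in one comparison was described in both. ATM1, NAR1, CFD1, JAC1, NAM2, ISM1, LEU5 and PDC5 were named after their values were seen. Of the 5 genes nearest to the set in pattern, 1 is not reported here. Members and lists were chosen with earlier results of these data known. Counting was tested on simulated data. Python 3.11.15, numpy 2.4.6, pandas 2.3.3, scipy 1.17.1, statsmodels 0.14.6 and matplotlib 3.10.9 were used.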

Additional observations from a re-analysis of the deposited data

Results flagged for a closer look

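On the RMA scale, 4 named genes had ratios of opposite sign in the comparisons of high pressure and of low temperature with their shared control array. The difference was not tested, since each condition has 1 array. ILV6, the regulatory subunit of acetolactate synthase, had log2 ratios of 0.12 under high pressure and -0.97 at low temperature. It is the only one of the 4 whose signs also differed with perfect-match intensities that were not centred (0.44 and -0.24). On that scale the medians of all genes were 0.20 and 0.53. BAT2, the cytosolic transaminase, had 0.15 and -0.13, both inside 1.5-fold, but 0.22 and 0.14 with perfect-match intensities. GCN4 had 0.39 and -0.24, also inside 1.5-fold, but 0.74 and 0.63 with perfect-match intensities, both higher past 1.5-fold. On that scale 23.7% of all genes under pressure and 46% in the cold were higher past 1.5-fold. HOM2, the aspartate semialdehyde dehydrogenase that lies upstream of threonine, had 0.21 and -0.62, of which the second is past 1.5-fold. With perfect-match intensities HOM2 had 0.55 and 0.31, both inside it. Relative to the medians of all genes on that scale, HOM2 lay above under pressure and below in the cold.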

How the results depend on the processing

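No paired analysis was possible because each condition has 1 array, and for the same reason no array could be left out. Of the 10 genes, 6 were lower under high pressure; the count was 2 with perfect-match intensities, 2 with perfect match minus mismatch, 3 at 2-fold and 8 with the arrays centred on their medians. At low temperature the count of 8 lower genes became 4, 3, 5 and 10 under these settings. For high pressure against low temperature the 4 higher genes became 1, 2, 1 and 7, where 1.65%, 5.23%, 1.25% and 8.82% of all genes were higher. The 0 lower genes became 1 with either intensity measure (ILV5), where 16.9% and 34.9% of all genes were lower. Over all settings the share of all genes higher in this comparison ranged from 1.25% to 8.82%. Centred perfect-match intensities, a setting chosen after the data were seen, gave 5 and 7 genes lower than control and 3 higher under pressure than in the cold. Quantile normalization of the gene values gave 6, 9 and 4, removal of the trend on gene length 6, 9 and 4, and no filter on low levels 6, 8 and 4. No gene was higher than control past 1.5-fold under any of these settings. ILV2 and LEU9 were lower past the limit in both comparisons with the control under each setting. The share of all genes lower ranged from 5.11% to 24.9% under high pressure and from 2.28% to 30.3% at low temperature, and the median of all genes moved to -0.18 and -0.26 with the arrays centred, so the counts rest on the scaling. The cause of the difference between RMA and perfect-match ratios was not tested.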
